A study of Mus musculus with 5 samples.

Results

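Milk protein genes are the secretory programme of the lactating mammary gland, and 10 of them were followed here in cells of mouse mammary tumours driven by the polyoma middle T oncogene (PyMT). The 10 genes, of 41028 gene names in the deposited matrices and of 24289 with at least 1 unique molecular identifier (UMI, a tag that marks 1 captured transcript) in the cells kept, were Csn3, Csn2, Csn1s1, Csn1s2a, Wap, Lalba, Wfdc18, Btn1a1, Glycam1 and Mfge8, chosen by name as milk or milk fat globule proteins. Digested PyMT mammary tumours, enriched for viable cells, were run on 2 single-cell platforms, 10x Genomics Chromium (3' v2) and BD Rhapsody (whole transcriptome), both of which count the 3' end of transcripts. There were 5 libraries: 2 of fresh cells on 10x (called fresh 10x 1 and fresh 10x 2), 1 on 10x of cells labelled 24h, which the protocol describes as digested tumour left overnight in the cold until viability had dropped (stored 10x), and 2 on BD Rhapsody (BD 1 and BD 2). The title of BD 2 calls it fresh while the names of its files call it 24h, so BD 2 was kept apart and is described only. Every group carried the PyMT oncogene, no normal or lactating gland was analysed here, and neither strain, age nor the driving promoter is given in the sources used here. The labels do not say whether the 2 fresh 10x libraries came from separate tumours, so p-values below measure the spread between these 2 samples, which may be technical.

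Caseins form the protein micelle of milk: Csn2, Csn1s1 and Csn1s2a encode calcium-sensitive caseins, and Csn3 encodes kappa-casein, which keeps the micelle soluble. Wap (whey acidic protein) and Lalba (alpha-lactalbumin, the regulatory subunit of lactose synthase) are whey proteins, Wfdc18 is a small secreted protein of the same protein family as Wap, and Glycam1 is a mucin-like secreted protein. Btn1a1 (butyrophilin) and Mfge8 (lactadherin) sit on the milk fat globule, and Mfge8 is also made outside the gland, for example by phagocytes and cells of vessel walls. In the normal gland these genes are switched on in alveolar luminal cells during pregnancy by prolactin through the transcription factor STAT5, together with ELF5. Tumours of PyMT mice arise from the luminal epithelium.

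On the GRCm38.p6 assembly, 4 of the genes lay in the casein cluster of chromosome 5 within 266 kb: Csn1s1 at chr5:87666208-87682578, Csn2 at chr5:87692619-87699429, Csn1s2a at chr5:87774450-87788798 and Csn3 at chr5:87925579-87932550. Wap (chr11:6635483-6638654) and Wfdc18 (chr11:83709004-83711360) were on chromosome 11, Lalba (chr15:98480400-98482934) and Glycam1 (chr15:103562759-103565081) on chromosome 15, Mfge8 (chr7:79133768-79149060) on chromosome 7 and Btn1a1 (chr13:23456984-23465914) on chromosome 13. Csn3 overlapped 1 other annotated gene (1700066N21Rik) and Btn1a1 overlapped 2, so reads there could belong to either if strand was not used in counting, which is not given in the sources used here.

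The RefSeq promoter table held 8 of the 10 genes. The 250 bases upstream of the transcription start are printed for the 5 genes whose transcripts were held by few cells (below), 5' to 3' on the gene's own strand, with matches to the STAT5-type palindrome TTCNNNGAA in capitals. The windows are chr5:87699426-87699675 (minus strand) for Csn2, chr5:87665958-87666207 (plus) for Csn1s1, chr5:87774200-87774449 (plus) for Csn1s2a, chr11:6638650-6638899 (minus) for Wap and chr15:103565082-103565331 (minus) for Glycam1.
Csn2: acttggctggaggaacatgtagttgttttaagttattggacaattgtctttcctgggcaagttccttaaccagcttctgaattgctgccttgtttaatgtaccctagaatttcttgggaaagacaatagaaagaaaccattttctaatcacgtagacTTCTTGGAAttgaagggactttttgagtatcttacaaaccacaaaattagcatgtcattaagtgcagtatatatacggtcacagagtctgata
Csn1s1: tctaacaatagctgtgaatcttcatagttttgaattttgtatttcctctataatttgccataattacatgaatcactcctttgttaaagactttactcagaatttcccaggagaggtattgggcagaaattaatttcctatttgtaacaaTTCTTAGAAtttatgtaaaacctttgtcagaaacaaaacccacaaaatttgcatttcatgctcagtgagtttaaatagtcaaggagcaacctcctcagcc
Csn1s2a: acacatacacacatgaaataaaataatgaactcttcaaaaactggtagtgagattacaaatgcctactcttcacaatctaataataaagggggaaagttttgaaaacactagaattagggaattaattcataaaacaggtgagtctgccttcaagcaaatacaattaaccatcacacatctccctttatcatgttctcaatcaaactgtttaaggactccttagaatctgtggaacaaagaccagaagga
Wap: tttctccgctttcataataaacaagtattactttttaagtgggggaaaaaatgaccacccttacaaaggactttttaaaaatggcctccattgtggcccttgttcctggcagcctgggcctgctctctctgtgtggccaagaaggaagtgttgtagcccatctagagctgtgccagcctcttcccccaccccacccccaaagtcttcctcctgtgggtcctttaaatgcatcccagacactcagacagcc
Glycam1: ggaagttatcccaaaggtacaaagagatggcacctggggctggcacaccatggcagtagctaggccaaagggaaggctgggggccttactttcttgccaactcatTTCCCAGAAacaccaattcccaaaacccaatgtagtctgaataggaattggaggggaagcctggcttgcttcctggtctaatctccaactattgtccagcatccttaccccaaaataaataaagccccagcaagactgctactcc
The match in Csn2 began 93 bases before the start, that in Csn1s1 100 bases before and that in Glycam1 145 bases before. The palindrome was searched on both strands, which it reads the same, and was found in 3 of the 8 milk protein windows and in 7.02% of all 32851 promoter windows of the same length in the table. A search for TATAAA on either strand gave a match in 1 of the 8, 31 bases before the start of Wfdc18, against 12.4% of all windows. Csn1s2a, Wap, Lalba and Mfge8 held neither motif in this window.

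The 5 libraries held 29166129 to 59957945 UMIs. After removal of cells with under 200 genes, 15619 cells were clustered without using the 10 genes, and 12019 of them were epithelial-like by fixed markers: 1385 and 1392 in the fresh 10x libraries, 3048 in the stored library, 2849 in BD 1 and 3345 in BD 2. In each library all 8 epithelial markers were detected in at least 25% of these cells. The median mitochondrial share of their UMIs was 6.73% to 7.80% on 10x and 16.5% and 20.9% in BD 1 and BD 2.

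Csn3 was the most counted milk protein transcript in every library and was found in nearly every epithelial-like cell. Its level, as UMIs per 10000 UMIs summed over epithelial-like cells, was 133 and 152 in the fresh 10x libraries, 149.9 in the stored library, 171 in BD 1 and 166 in BD 2. With each cell thinned to 2000 UMIs, 90.9% to 96.0% of epithelial-like cells had a Csn3 UMI. Wfdc18 was second in all 5 libraries, at 54.9 and 43.5 in fresh 10x, 92.6 in the stored library, 81.7 in BD 1 and 64.3 in BD 2, and was detected in 73.3% to 90.2% of thinned cells. Lalba was at 11.2 and 15.3 in fresh 10x, 16.8 in stored 10x, and 66.2 and 60.3 in the BD libraries. Both BD values of Lalba were above all 3 values on 10x. How many of all genes lay apart in this way was not counted, and 44.8% of genes tested were called between BD 1 and fresh 10x (below). Mfge8 was at 10.7 and 6.99 in fresh 10x, 13.9 in the stored library, 8.77 in BD 1 and 7.24 in BD 2, and was detected in 40.6% to 66.6% of thinned cells. Levels of different genes are compared here as UMIs, in which each captured 3' end counts once whatever the transcript's length, and the capture of each gene is unknown.

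The calcium-sensitive caseins had lower levels and far lower detection. Csn2 was at 12.4 and 11.8 UMIs per 10000 in fresh 10x, 13.3 in the stored library, 12.8 in BD 1 and 7.71 in BD 2. BD 2 was the lowest, and the other 4 libraries lay close together. Csn1s1 was at 10.4 and 15.8 in fresh 10x, 11.3 in the stored library, 9.20 in BD 1 and 7.61 in BD 2, so the 2 fresh libraries spanned the stored value. Csn1s2a was at 6.20 and 6.07, then 8.22, 9.30 and 6.19 in the same order of libraries. Thinned detection was 8.32% to 18.2% of cells for Csn2, 16.8% to 27.2% for Csn1s1 and 8.51% to 12.0% for Csn1s2a. Of the remaining genes, Wap was at 3.797 and 2.59 in fresh 10x, 2.36 in the stored library, 2.57 in BD 1 and 1.96 in BD 2. Btn1a1 ranged from 0.531 (fresh 10x 2) to 1.60 (BD 1), and Glycam1 from 0.635 (BD 2) to 1.27 (fresh 10x 1). Csn2 and Lalba had about the same level in fresh 10x 1, yet a Csn2 UMI was found in 11.02% of its thinned cells and a Lalba UMI in 47.4%.

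**Figure D1:**
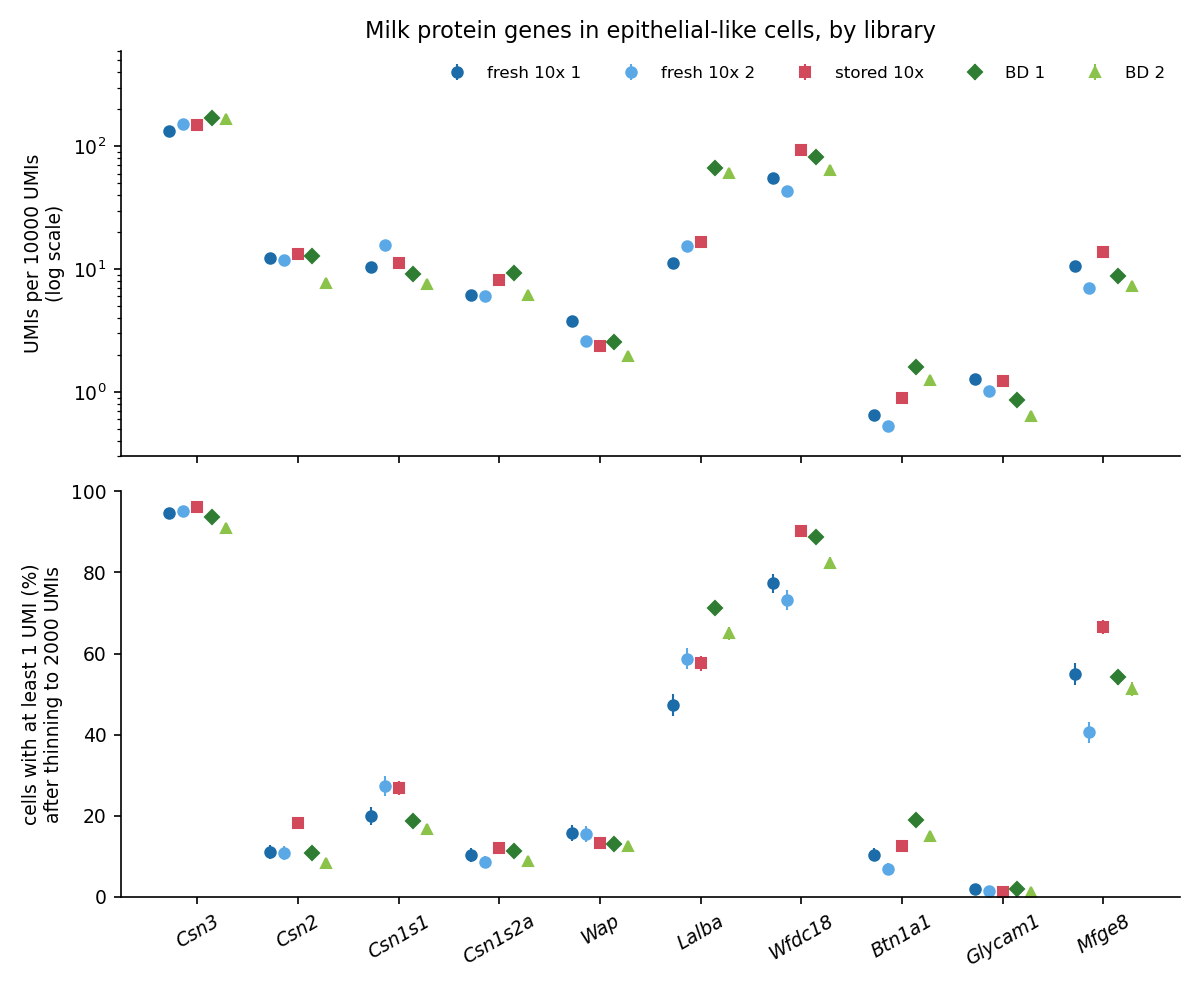
Level of each milk protein gene in epithelial-like cells (upper panel, UMIs per 10000 UMIs, log scale, bars are exact 95% Poisson intervals) and share of cells with at least 1 UMI after thinning to 2000 UMIs (lower panel, bars are exact 95% binomial intervals, both for counting error only), with 1 point for each of the 5 libraries. Csn3 leads both panels in every library, Lalba is at 66.2 and 60.3 in BD 1 and BD 2 against 11.2 to 16.8 on 10x, and Csn2 reaches the level of Mfge8 with a much smaller share of cells.

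Together the 10 genes made up 2.45% and 2.56% of all epithelial-like UMIs in fresh 10x, 3.10% in the stored library, 3.64% in BD 1 and 3.23% in BD 2. The median cell gave 1.82% and 2.01% in fresh 10x, 2.19% in the stored library, 2.98% in BD 1 and 2.48% in BD 2. The top cell of each library reached 27.1% to 38.0%. Cells that gave at least 10% of their UMIs to the 10 genes numbered 22 and 17 in fresh 10x, 65 in the stored library, 90 in BD 1 and 81 in BD 2, which is 1.22% to 3.16% of epithelial-like cells. Csn3 alone supplied 46.9% to 59.5% of the milk protein UMIs.

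The 10 genes ranged from broadly held to narrowly held transcripts. Cells were ranked here by their UMIs of the gene, not scaled for depth, so deep cells enter the top more readily. The 1% of epithelial-like cells with the most Csn3 held 5.97% of its UMIs (median of 5 libraries; range 5.50% to 9.56%), and the like medians were 12.5% for Lalba, 13.1% for Mfge8 and 15.5% for Wfdc18. For Csn2 the top 1% of cells held 61.5% of the UMIs (56.0% to 72.4%), so that 9 and 12 cells of the fresh 10x libraries, 20 of stored 10x, 22 of BD 1 and 18 of BD 2 held at least as many Csn2 UMIs as all other epithelial-like cells of their library. Csn1s2a was held still more narrowly, at 75.3% (70.3% to 78.4%), Wap at 50.8% and Csn1s1 at 39.5%. Glycam1 was at 95.3% (94.0% to 97.9%), and 1 cell of stored 10x carried 3132 of its 5694 UMIs. Btn1a1 had a lower level than Csn2 in every library, yet its top 1% of cells held 20.0%.

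**Figure D2:**
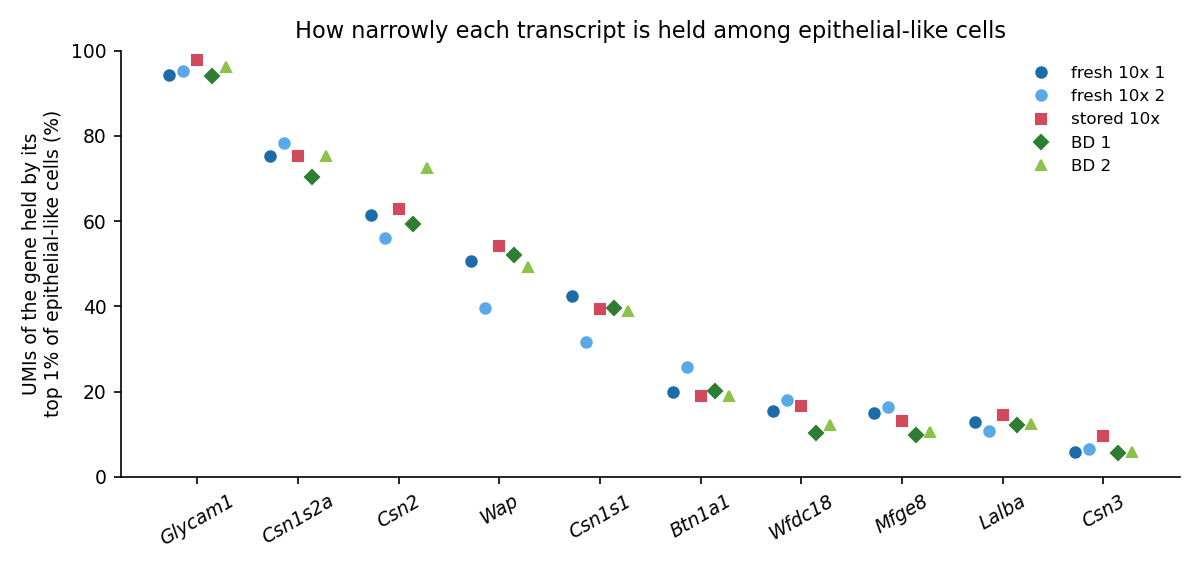
Share of each gene's epithelial-like UMIs that the 1% of cells with the most UMIs of that gene held, with 1 point per library and genes ordered by their median. Glycam1, Csn1s2a, Csn2, Wap and Csn1s1 sit at 31.7% to 97.9%, and Csn3, Lalba, Mfge8 and Wfdc18 at 5.50% to 18.1%. Btn1a1 lies between them, at 19.0% to 25.8%.

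Co-expression across cells was highest among the calcium-sensitive caseins. Pearson correlations of log2(UMIs per 10000 + 1), given as the median of the 5 libraries with the range, were 0.70 (0.66 to 0.74) for Csn2 with Csn1s2a, 0.62 (0.57 to 0.70) for Csn2 with Csn1s1 and 0.57 (0.46 to 0.64) for Csn1s1 with Csn1s2a. Wap (0.44) and Glycam1 (0.46) were next for Csn2. Csn3, in the same casein cluster on chromosome 5, gave 0.13 (0.11 to 0.14) with Csn2 and 0.14 with Csn1s2a. Csn3 was instead closest to Wfdc18 (0.46, 0.36 to 0.50) and Lalba (0.45, 0.35 to 0.52). Lalba and Mfge8 gave 0.05 (-0.03 to 0.11), the lowest median of the 45 pairs although both are broadly held, alongside Csn3 with Glycam1, also at 0.05. Csn3 with Mfge8 gave 0.20, below Csn3 with Csn1s1 (0.23). For scale, the paired keratins Krt8 and Krt18 gave 0.59. Cells of 1 library share depth and are not replicates, so these are descriptions. After thinning to 2000 UMIs, a Csn1s1 UMI was found in 51.3% to 75.3% of Csn2-positive cells and in 13.2% to 21.4% of Csn2-negative cells. The corresponding shares for a Csn2 UMI were 8.96% to 18.4% of Csn3-positive and 1.54% to 11.7% of Csn3-negative cells.

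**Figure D3:**
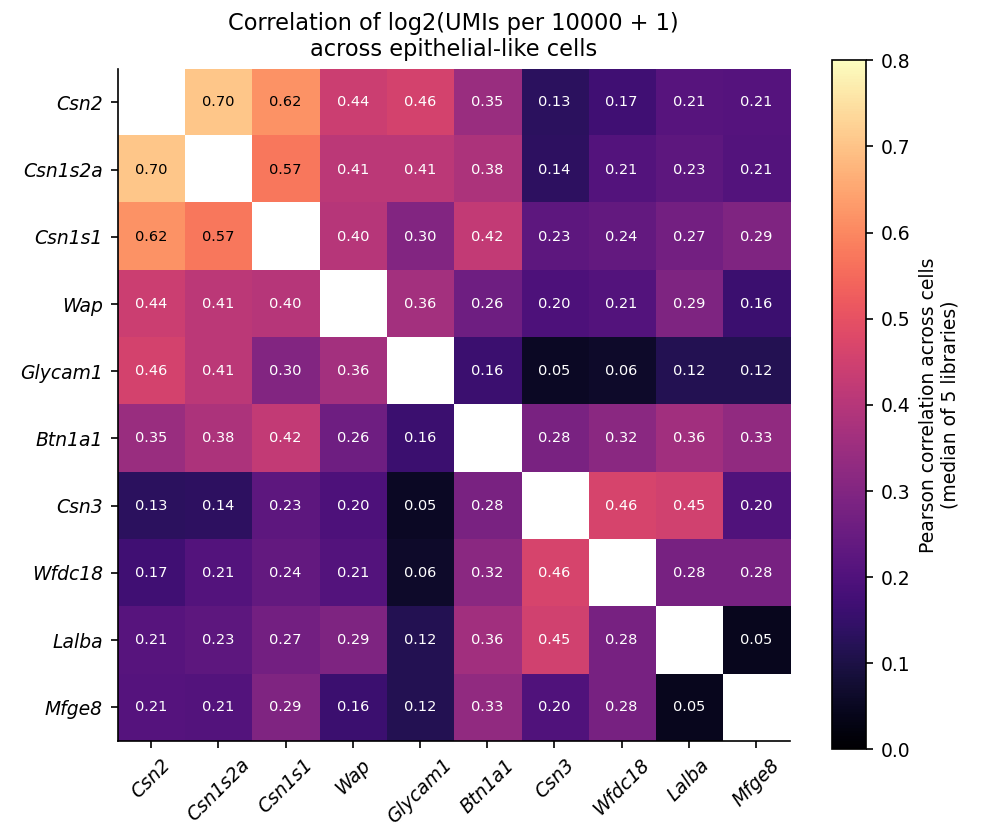
Pearson correlation across epithelial-like cells of log2(UMIs per 10000 + 1) for each pair of the 10 genes, as the median of the 5 libraries. The block of Csn2, Csn1s2a and Csn1s1 reaches 0.57 to 0.70, while Csn3 is at 0.05 to 0.23 with Csn2, Csn1s2a, Csn1s1, Wap and Glycam1 and at 0.45 to 0.46 with Lalba and Wfdc18.

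The genes most like Csn3 and Csn2 were different. Among 8277 genes outside the 10 with a mean of at least 0.1 UMI per epithelial-like cell in every library, the 8 closest to Csn3 by median Pearson correlation over the 5 libraries were Trf (transferrin, 0.51), Lcn2 (lipocalin 2, 0.49), Plet1 (0.46), Lrg1 (0.46), Ldha (lactate dehydrogenase A, 0.45), Ly6e (0.45), Cd81 (0.44) and Muc15 (0.40). The 8 closest to Csn2 were Lao1 (an L-amino acid oxidase of milk, 0.36), Ltf (lactoferrin, 0.31), Ndrg1 (0.30), Lpl (lipoprotein lipase, 0.30), Abhd5 (a lipolysis co-activator, 0.25), Plin2 (the coat protein of lipid droplets, 0.24), Atp2c2 (a calcium pump of the secretory pathway, 0.24) and Ptges (0.23). All 16 are descriptions over 5 libraries.

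The narrowly held transcripts were highest together in 1 small cluster. Cluster 2 held 211 of the 12019 epithelial-like cells, 47 and 27 in fresh 10x, 46 in the stored library, 53 in BD 1 and 38 in BD 2, which is 1.14% to 3.39% of the epithelial-like cells of a library. The clustering did not use the 10 genes, yet Glycam1, Csn1s2a, Csn2 and Wap were its leading 4 genes by fold against all other cells, followed by Saa2, Lao1, Saa1, Csn1s1, Fabp3 and Cel. In cluster 2 the level of Csn2 was 103 and 184 UMIs per 10000 in fresh 10x, 219 in the stored library, 175 in BD 1 and 142 in BD 2, against 18.9 to 30.4 in the cluster that came next in each library. Cluster 20, with 49 cells over the 5 libraries, was left out of that ranking for its few cells, and its highest Csn2 level was 49.4. Csn1s2a was at 61.5 to 143, Csn1s1 at 56.5 to 120.2, Wap at 27.5 to 43.4 and Glycam1 at 3.67 to 38.3. In fresh 10x 1 cluster 11 was higher in Glycam1, at 4.27. The cluster supplied 32.7% to 49.2% of the Csn2 UMIs of all epithelial-like cells, 33.7% to 62.0% of Csn1s2a and 2.79% to 7.79% of Csn3. It did not hold every high cell: 26.5% to 61.3% of the top 1% of cells by Csn2 level belonged to it. Its size depends on the clustering. At a Leiden resolution of 2, a choice of comparison made after seeing the data, the cluster with the same 4 leading genes held 683 cells, 187 of the 211 among them, with a Csn2 level of 57.1 to 156 UMIs per 10000 and 48.3% to 66.1% of the Csn2 UMIs.

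Cluster 2 cells were also deeper. Their median was 19340 to 27057 UMIs per cell, against 9537 to 12866 in other epithelial-like cells of the same library, and their median milk protein share was 4.97% to 8.93% against 1.78% to 2.94%. The share of its cells in the top 6% of doublet scores was 10.6% in fresh 10x 1 against 5.53% of other epithelial-like cells, 0% in fresh 10x 2, 2.17% in the stored library, 3.77% in BD 1 and 7.89% in BD 2 against 5.17%. The part of depth and of doublets in the result was not tested.

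Genes of milk fat, lactose and transport stood high in the same cells. Of 25 such genes, 20 were higher in cluster 2 than in the other epithelial-like cells of every one of the 5 libraries. Lalba and Btn1a1, which also belong to the 10 milk protein genes, are among the 20. The median log2 ratio over the list was 1.06, and Aqp5 was lower in all 5. Of all 15978 genes with an epithelial-like UMI in every library, 4.33% were higher in cluster 2 in all 5 and 31.3% lower, and of the 8287 with a mean of at least 0.1 UMI per cell the shares were 6.77% and 28.3%. Examples are Fabp3 (fatty acid binding, median log2 ratio 3.21), Cel (a lipase of milk, 3.13), Lpl (2.00), Olah (which ends medium-chain fatty acid synthesis, 1.96) and Plin2 (1.64). Aqp5, a water channel, had a median log2 ratio of -1.54. Atp2b2 had no UMI in the cluster and at most 0.00433 UMIs per 10000 in the other cells, too few to give a direction. Of 15 alveolar and lactation regulators, Elf5 (1.18), Stat5a (0.55) and Cish (0.12) were higher in all 5 libraries, while Socs2 (-1.58) and Id2 (-0.69) were lower. Foxa1 (-0.40) also read lower in all 5, with 3 UMIs in the cluster and at most 0.0381 UMIs per 10000 in the other cells. That is too few to give a direction. Cish and Socs2 are both feedback inhibitors induced by STAT5. Socs2 had log2 ratios of -1.99 to -0.28 over the libraries. Those of Cish were small, 0.09 to 0.44 from 198 UMIs in the cluster, so the genes are not set against each other. Of 8 progenitor and basal genes, Cd14 was higher (0.83), and Kit, Itga2, Sox9, Krt5, Krt14 and Acta2 were lower. Krt5 had 3 UMIs and Acta2 8 UMIs in the cluster, and Itga2 had 24 UMIs with a median log2 ratio of -0.10. These are ratios of a cluster to its rest, so they carry no test. The cluster was singled out by its Csn2 level, and the clustering left out only the 10 milk protein genes. Other listed genes could thus help to form the cluster, and part of their difference may be built in.

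The other clusters differed in Csn3 too, but by less. Rankings within a library leave out cluster 20, which had 49 cells over the 5 libraries. Its levels ranged from 14.2 to 117 UMIs per 10000 for Csn3, 0.187 to 49.4 for Csn2 and 4.93 to 141 for Wfdc18. Cluster 7, led by Npy, Fcgbp and Spp1, had the highest Csn3 level in all 5 libraries, 203 to 298 UMIs per 10000, with cluster 2 second. Cluster 18 had the lowest, 18.6 to 31.96, a ratio of highest to lowest of 6.36 to 15.3. For Csn2 the ratio of highest to lowest cluster was 284 to 1093. Cluster 12, led by the basal keratins Krt5 and Krt14, had the lowest Wfdc18 level in every library, and its Mfge8 level was 14.4 (median of libraries), above 9 of the other 12 epithelial-like clusters. Cluster 4, led by Scgb1b27 and Prh1, had the lowest Mfge8 in all 5 libraries, with 139 UMIs per 10000 of Csn3 and 0.2 of Csn2 (medians). Cluster 0, led by S100g and Aldh1a3, was second to cluster 2 in Csn2 in 4 of the 5 libraries, and its Mfge8 was the highest of any cluster in 4.

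**Figure D4:**
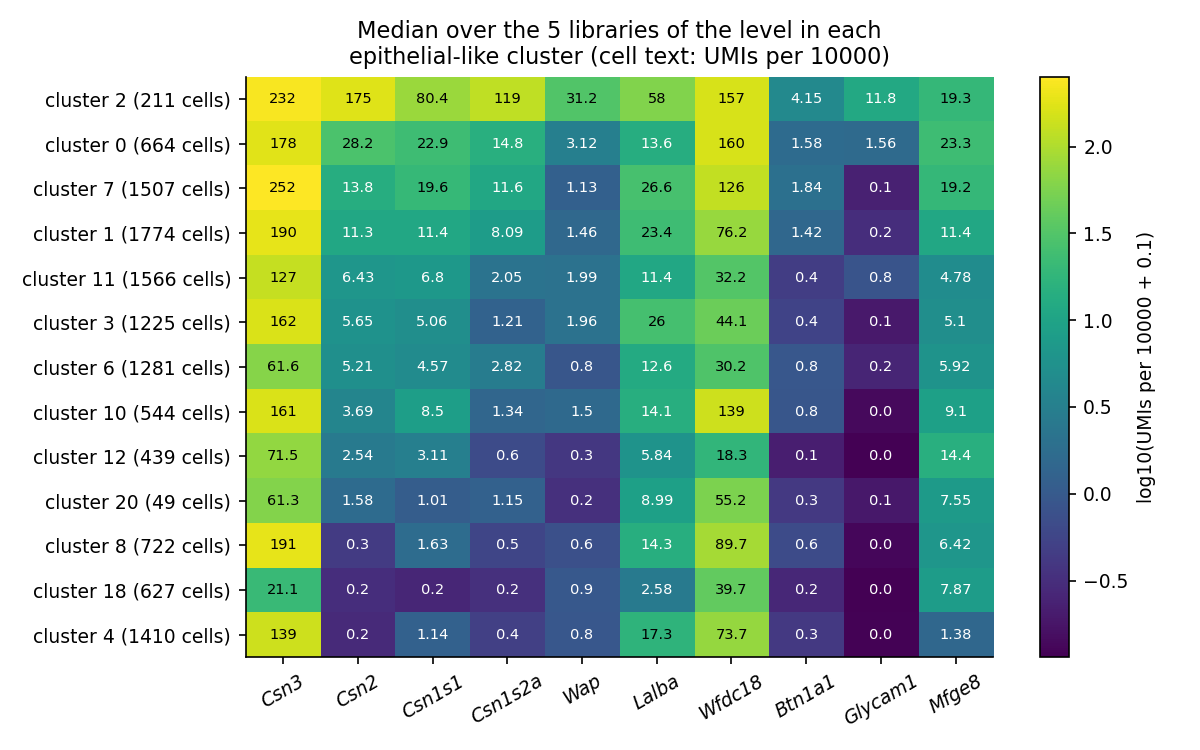
Level of each gene (columns) in each epithelial-like cluster (rows, ordered by Csn2, with the number of cells), as UMIs per 10000 UMIs written in each field and coloured on a log10 scale, the median of the 5 libraries. Cluster 2 is the row in which Csn2, Csn1s1, Csn1s2a, Wap and Glycam1 are all highest, whereas Csn3 ranges from 21.1 in cluster 18 to 252 in cluster 7.

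The first tested comparison set the epithelial-like cells of stored 10x against those of fresh 10x. None of the 10 milk protein genes was called in stored against fresh 10x in edgeR's quasi-likelihood test with Benjamini-Hochberg adjustment over 14028 genes, of which 279 (1.99%) were called, 1.43% higher and 0.563% lower. At an unadjusted p under 0.05, 4 of the 10 passed, as did 17.3% of all genes tested, and DESeq2 called 1 (Wfdc18). The stored library was above both fresh libraries for 6 of the 10, as it was for 36.9% of all genes tested. Wfdc18 was at 92.6 against 49.2 ± 8.08 UMIs per 10000 (SD, n = 2), which is 0.92 in log2 fold change with an SE of 0.21 (edgeR adjusted p = 0.0658). The others were Btn1a1 (log2 0.61, edgeR adjusted p = 0.0841), Csn1s2a (0.43, edgeR adjusted p = 0.156), Mfge8 (0.65, edgeR adjusted p = 0.203), Lalba (0.36) and Csn2 (0.15). Csn3 (0.09) and Glycam1 (0.10) lay between the fresh libraries, as did Csn1s1, with a log2 fold change of -0.20, and Wap (-0.43) was below both. The median log2 fold change of the 10 was 0.25, against -0.0003 over all genes tested. With no filter on low counts 3 of the 10 (Wfdc18, Btn1a1 and Mfge8) were called. The number of genes called in all ranged from 35 to 1093 over the alternatives. The lone stored sample is assumed to vary as the 2 fresh ones do, and storage and library cannot be told apart.

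Of the related lists, Socs2 was the 1 called gene of the 15 regulators (log2 0.73), and none of the 24 milk fat, lactose and transport genes tested was called. Among the markers of other cells in these epithelial-like sums 3 were called: of 6 fibroblast markers Lum (1.19) and Col3a1 (1.11) rose, as did the neutrophil marker S100a8 (1.41). The median log2 fold change was 0.78 over the fibroblast markers and 1.19 over the 5 macrophage markers tested, but -0.64 over 5 endothelial, -0.09 over 5 mural and -0.74 over 3 red cell markers. All 6 fibroblast markers together summed to 0.866 and 0.755 UMIs per 10000 in fresh 10x and 1.33 in stored 10x, and the 7 neutrophil markers to 0.514, 0.374 and 1.18. Their part in the milk protein values was not tested.

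The second comparison set BD 1 against fresh 10x. Of 14415 genes tested, 6455 (44.8%) were called, and 5 of the 10 milk protein genes were among them, a share near the background; 4 were higher (22.6% of all genes tested) and 1 lower (22.1%). Lalba rose most, from 13.3 ± 2.93 UMIs per 10000 (SD, n = 2) in fresh 10x to 66.2 in BD 1, or 2.19 in log2 fold change with an SE of 0.20 (edgeR adjusted p = 0.000235). BD 2, which was not in the fit, read 60.3. Btn1a1 rose by 1.30 (SE 0.15, edgeR adjusted p = 0.000549), from 0.592 ± 0.086 to 1.60 UMIs per 10000. Csn1s2a (0.47, edgeR adjusted p = 0.0217) and Wfdc18 (0.60, edgeR adjusted p = 0.0494) rose, and Glycam1 was the gene that fell (log2 fold change -0.55, edgeR adjusted p = 0.0264). The Wfdc18 call was lost under 6 of 9 alternatives, with an edgeR adjusted p of up to 0.0910. BD 2 was at 6.19 for Csn1s2a, inside the fresh 10x values, and outside them in the direction of BD 1 for Btn1a1, Wfdc18 and Glycam1. The share of all genes for which BD 2 lay outside the fresh 10x values was not counted. Csn3 (0.12), Csn2 (-0.05), Csn1s1 (-0.64, edgeR adjusted p = 0.0596), Wap (-0.45) and Mfge8 (-0.15) were not called. The median log2 fold change of the 10 was 0.04, against 0.01 over all genes.

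In the same comparison, in which 22.6% of all genes tested rose and 22.1% fell, 7 of the 25 milk fat, lactose and transport genes rose. Lalba and Btn1a1, already counted above, are among these 7. Another 8 fell, among them Cidea (-2.21), Folr1 (-1.78) and Fabp3 (-1.45). Of the 15 regulators 4 rose and 1 fell, with Foxa1 (1.79) and Cebpb (-1.18) the largest. Basal genes Krt14 (-2.06), Acta2 (-1.99) and Krt5 (-1.31) fell. Platform and library cannot be told apart, since BD 1 is the 1 BD library in the fit, and the mitochondrial share of its epithelial-like cells was 16.5% against 6.73% and 7.61% in fresh 10x.

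Milk protein UMIs also appeared in cells that should not make caseins. Summed over the 10 genes, macrophage-like cells carried 5.89% and 12.2% of the epithelial-like level of their own library in fresh 10x, 32.2% in the stored library, 11.7% in BD 1 and 10.5% in BD 2. T-like cells carried 9.42% and 7.17% in fresh 10x, 17.0% in the stored library, 37.7% in BD 1 and 11.9% in BD 2. Endothelial-like cells carried 4.69%, 8.57%, 24.0%, 14.4% and 3.004% in the same order, and fibroblast-like cells 3.93%, 3.71%, 10.3%, 4.86% and 7.13%. The endothelial-like class of BD 2 had 13 cells. In these 4 classes the stored library exceeded both fresh 10x libraries. In mural-like cells (27 in stored 10x, 70 and 61 in fresh 10x) it did not, at 6.70% against 6.47% and 9.52%. These sums include Mfge8, which is also made outside the gland. In fibroblast-like cells Mfge8 gave 1620 of 2510 and 1033 of 1830 summed UMIs in fresh 10x, and 1530 of 12166 in stored 10x. Csn3 alone stood there at 1.45% and 1.68% of its epithelial-like level in fresh 10x and 9.93% in stored 10x. In mural-like cells of fresh 10x 1, Mfge8 gave 297 of 584. Krt8, Krt18 and Epcam, structural epithelial genes, were summed in the same way for scale. In macrophage-like cells they stood at 8.86% and 19.97% of their epithelial-like level in fresh 10x, 22.4% in the stored library, 10.5% in BD 1 and 12.9% in BD 2, and in the T-like cells of BD 1 at 33.3%. The macrophage-like value of these 3 genes exceeded that of the milk protein genes in fresh 10x and BD 2, and was below it in stored 10x and BD 1. The source of these UMIs was not tested.

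Much of this sat in single cells. In stored 10x, 1 of 188 macrophage-like cells held 1511 of the class's 1624 Csn2 UMIs and 1719 of its 1766 Csn1s2a UMIs. That cell had 41763 UMIs, of which 14.1% were from the 10 genes, and was among the top 6% of doublet scores. With it, the Csn2 level of stored macrophage-like cells was 109% of the epithelial-like level and that of Csn1s2a 191%. Without it they were 7.88% and 5.29%, and without the top cell of each fresh 10x library they were 1.88% and 1.85% for Csn2 and 1.87% and 1.51% for Csn1s2a. In the endothelial-like cells of stored 10x, 1 cell held 615 of 656 Csn2 UMIs. The T-like cells of BD 1 kept 31.9% of the epithelial-like level without their top cell, and 13.6% without the cells in the top 6% of doublet scores.

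The median cell gave another picture than the sums. The median macrophage-like cell carried 2.51% and 3.89% of the median epithelial-like cell's milk protein share in fresh 10x, 8.01% in the stored library, 2.37% in BD 1 and 2.34% in BD 2. The median T-like cell carried 7.11% in stored 10x against 2.72% to 4.15% elsewhere, and the median endothelial-like cell 7.81% against 2.38% to 3.61%. In the fibroblast-like cells of fresh 10x the medians, 4.92% and 4.18%, were above the summed values, and stored 10x was at 5.91%. These too include Mfge8, and for Csn3 alone the fibroblast-like medians were 1.27% and 1.70% in fresh 10x and 3.91% in stored 10x. BD 1, highest of the libraries in T-like cells by sum, was at 2.89% by median. Without each library's top cell the summed macrophage-like values were 2.83% and 9.85% in fresh 10x and 15.8% in stored 10x.

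**Figure D5:**
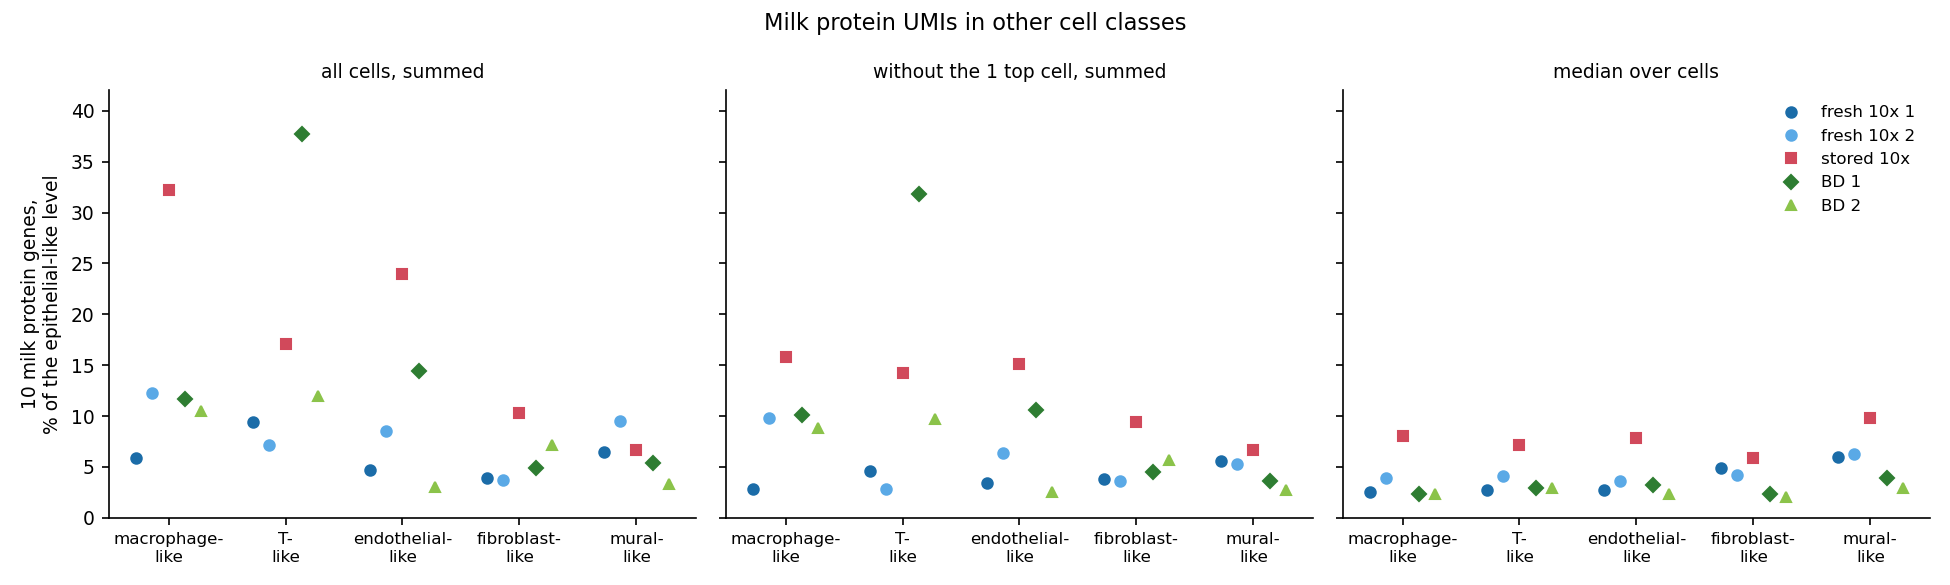
Level of the 10 genes together in 5 other cell classes as a percentage of the epithelial-like level of the same library, with 1 point per library, from summed UMIs (left), from summed UMIs without the 1 cell with the most milk protein UMIs of each class and library (middle) and from the median cell (right). Stored 10x is above both fresh 10x libraries in every class and panel except the mural-like class in the left panel (6.70% against 6.47% and 9.52%), and the macrophage-like value of stored 10x goes from 32.2% to 15.8% to 8.01%. The 10 genes include Mfge8, which gave 1620 of the 2510 UMIs of fibroblast-like cells in fresh 10x 1.

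Across all genes, the macrophage-like sums of stored against fresh 10x gave 7 calls of 8360 (0.0837%) in edgeR's quasi-likelihood test, 2 of which were milk protein genes. These were Csn1s2a (log2 fold change 7.21, edgeR adjusted p = 0.00799) and Csn2 (6.07, edgeR adjusted p = 0.00799), the pair that the single cell carried. All 10 genes were higher in stored 10x than in both fresh libraries, as were 33.3% of all genes tested, with a median log2 fold change of 2.69 against -0.01 over all genes. Btn1a1 (0 and 1 UMIs in fresh 10x, 65 in stored 10x) and Glycam1 (1 and 2, against 80) passed the filter on low counts only through stored 10x. Their direction was thus fixed by the filter, and 1 cell held 46 of the 65 Btn1a1 UMIs and 1 cell 76 of the 80 Glycam1 UMIs. Without the top cell of each library, a choice made after seeing the data, edgeR called 7 of the 9 milk protein genes it tested and 123 of 8390 genes in all. The log2 fold change was then 2.23 for Csn2 and 1.43 for Csn3 (edgeR adjusted p = 0.000301 and 0.000294), and that of Wap was -0.52. All 10 were called with no filter on low counts (148 of 14773 genes in all) and with a floor of 2000 UMIs per cell (70 of 8374). They were also called with a floor of 500 together with a ceiling of 20% mitochondrial share (68 of 8373), and at the finer clustering (147 of 8386). With library sizes that leave out the 10 genes, none was called in edgeR (6 at an unadjusted p under 0.05, as were 4.50% of all genes). Of the 4 red cell markers Hbb-bt (8.37) and Hbb-bs (7.57) were called too, and none of the 8 epithelial markers was, with a median log2 fold change of 0.52.

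Detection in other classes was set beside detection in epithelial-like cells. After thinning to 2000 UMIs, a Csn2 UMI was found in 11.02% and 10.8% of epithelial-like cells of fresh 10x and in 6.12% and 5.26% of macrophage-like cells. In stored 10x the shares were 18.2% of epithelial-like, 19.0% of macrophage-like and 16.7% of T-like cells. The epithelial-like share alone is therefore not read as the share of cells that make Csn2. The source of the Csn2 UMIs in stored 10x was not tested. The UMIs themselves were unevenly held there: the top 1% of stored epithelial-like cells held 62.8% of them, and a Csn1s1 UMI was found in 51.3% of Csn2-positive against 21.4% of Csn2-negative cells. Median depth before thinning was 12221 and 12982 UMIs in epithelial-like and 6466 and 5767 in macrophage-like cells of fresh 10x, and 10581 and 4676 in stored 10x. Csn3 differed in that its share, 94.8% and 95.2% in fresh 10x and 96.0% in stored 10x, stood above the macrophage-like shares of 38.8%, 62.1% and 81.6%. Unthinned, 53.2% of stored epithelial-like cells had a Csn2 UMI against 26.8% and 30.9% in fresh 10x, although the summed Csn2 levels were 13.3 against 12.4 and 11.8.

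Mfge8 was also counted at a high level in the stroma. Fibroblast-like cells had 58.0% and 76.7% of the epithelial-like level in fresh 10x, 28.9% in the stored library, 29.3% in BD 1 and 34.8% in BD 2, while Csn3 in the same cells stood at 1.45% and 1.68% in fresh 10x. Mural-like cells, the smooth muscle and pericyte layer of vessels, had 8.05 and 8.85 UMIs per 10000 in fresh 10x, 8.12 in the stored library, 6.11 in BD 1 and 4.64 in BD 2, against 6.99 to 13.9 in epithelial-like cells. The mural-like classes of BD 1 and BD 2 had 12 and 7 cells. Set against the 10 genes together, whose percentage counts as 1, the Mfge8 percentage in fibroblast-like cells was 14.7 and 20.7 in fresh 10x, 2.82 in the stored library, 6.04 in BD 1 and 4.88 in BD 2, and that of Csn3 was 0.368 to 0.967.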

How the data were processed

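The deposited files are UMI count matrices, 1 per library, with their gene and barcode lists. The submitters' processing notes name Cell Ranger 3.0.1 and the mm10 build for every library; the role of the tool in the BD matrices is not given in the sources used here. The matrices of the 2 fresh 10x libraries list 42562 gene names and the other 3 list 32845, so the annotation may differ between the groups compared and cannot be told apart from them; all 10 genes are in every list. Altered spellings of a symbol were merged. Beside these, 2 subset matrices of BD 1 and a pooled matrix were not used.

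Cells with at least 200 genes were scaled to 10000 UMIs and clustered in scanpy 1.11.5 (2000 variable genes without the 10 milk protein genes, 30 principal components, Leiden resolution 1), and clusters were named from fixed markers with at least 3 detected in 25% of cells. Scrublet marked 0 to 9 cells per library, too few for a working call, so doublets were not removed. Between 0 and 24 barcodes were shared by any pair of libraries. Detection was compared after thinning cells to 2000 UMIs; intervals (95%, exact) cover counting error only. UMI counts summed per library were tested with edgeR 4.0.16 (R 4.3.3), which was tested on simulated data first, with DESeq2 1.42.0 as an alternative; the SE is that implied by the quasi-likelihood F. All 10 genes are named whatever their values; other genes by the stated correlation rule or as up to 4 called members of a list. The members and lists were chosen with earlier results of these data known. No batch or date is given in the labels.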

Additional observations from a re-analysis of the deposited data

Results flagged for a closer look

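For Mfge8 the stored library stood on opposite sides of the fresh 10x libraries in 2 cell classes. Against both fresh 10x libraries, the stored library was higher in epithelial-like cells, by 5.004 UMIs per 10000 over the fresh mean, and lower in fibroblast-like cells, with a difference of -1.781 (4.01 against 6.21 and 5.37). The difference between the classes was not tested, and the stored group has 1 library.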

How the results depend on the processing

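The number of genes called for storage in epithelial-like cells (279) was 121 with RLE normalization, 180 with DESeq2, 1093 with no filter on low counts, 175 with a floor of 500 UMIs and a ceiling of 20% mitochondrial share per cell, 175 with cells of at least 2000 UMIs, 115 without the top 6% of doublet scores and 35 at Leiden resolution 2.0; milk protein genes called were 1 with DESeq2, 3 with no filter and 0 under the others. For macrophage-like storage (7 genes, 2 of them milk protein genes) the counts were 14 with DESeq2, 148 with no filter, 68 with the 500-UMI and 20% filter, 70 with the 2000-UMI filter, 166 without the top doublet scores, 147 at resolution 2.0, 123 without the top cell and 0 with library sizes that leave out the 10 genes (381 of its 8473 genes had an unadjusted p under 0.05). The milk protein genes called were then 10 with no filter, with either cell filter and at resolution 2.0, 7 without the top doublet scores, 7 without the top cell and 0 with those library sizes (6 at an unadjusted p under 0.05). The platform counts stayed within 1.5 times, at 4305 to 8497 genes and 4 to 6 milk protein genes; among single genes, Wfdc18 lost its call under 6 alternatives and Csn1s2a under 1, and Csn1s1 gained one under 4.

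The storage difference in macrophage-like milk protein level (23.1 percentage points) was 10.6 without the top doublet scores, 9.50 without the top cell, 4.81 as the median over cells, and 19.9 to 26.3 leaving out 1 fresh library. Milk protein genes detected in over 50% of thinned cells in every library numbered 2, against 4 with no thinning, and 3 leaving out either fresh library. The median Spearman correlation over the 45 pairs (0.185) was 0.279 as Pearson at full depth and 0.196 with the 500-UMI and 20% filter, and 0.185 to 0.186 leaving out 1 fresh library. Signs turned for storage in Csn3 (-0.024 without fresh 10x replicate 1, 0.172 without replicate 2), Csn1s1 (-0.489 and 0.109) and Glycam1 (0.253 and -0.056), for platform in Csn2 (0.063 with the 500-UMI and 20% filter, 0.119 without replicate 1 and 0.054 without replicate 2) and Mfge8 (0.327 and -0.288), and for macrophage-like storage in Wap (-0.520 without the top cell). Leaving out a fresh library gives values with no test. For single genes these are plain log2 ratios of UMIs over total UMIs, without the normalization factors of the main fit. They thus differ from the main values in normalization as well as in libraries. For Csn2 the plain ratio of BD 1 to the mean of both fresh 10x libraries was 1.06, so its positive sign does not depend on leaving 1 out. Fewer cells or genes enter the filtered settings; beyond that the cause was not tested. The milk-led cluster held 211 cells, and 683 at resolution 2.0. That comparison, leaving out the top cell, and leaving out a fresh library for leakage, detection and co-expression, were chosen after seeing the data. No paired analysis was possible because the groups compared share fewer than 2 replicate numbers. Depth limits the rare genes: Glycam1 was at about 1 UMI per 10000.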
